A study of Mus musculus with 4 samples.

Results

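Interferon-stimulated genes and the genes that carry the interferon signal were followed in mouse hippocampus as a set of 35 genes, matched by gene symbol. The set was chosen with earlier results of these data known. Its counts, set beside the shares over all genes, are therefore descriptions and no independent evidence. All 35 were found among the 19388 genes with values. They comprised 24 genes typical of the type I interferon response, 5 GTPase genes typical of the interferon-gamma response, and 6 genes of receptors and transcription factors. Polyadenylated RNA was sequenced from hippocampus of C57BL/6 mice, a common inbred strain, in 2 samples from mice treated with (+)-Sodium L-ascorbate, the sodium form of vitamin C, and 2 from mice treated with PBS (phosphate-buffered saline). The series describes 30 days of treatment and names middle-aged mice in its title, while dose, route, sex and exact age are not given in the sources used here. Nothing in the labels tells separate animals from pooled ones, so each p-value reflects the spread between these 4 samples alone, which may be technical. Samples carry the numbers 1 and 2 within each group, and the labels give these numbers no meaning.

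Interferons are secreted proteins that alert cells to infection. Type I interferons bind a receptor made of Ifnar1 and Ifnar2, whose kinases activate transcription factors. Among these, Stat2 acts with Irf9 on a DNA element called the interferon-stimulated response element (ISRE). Interferon-gamma has its own receptor and acts mainly through gamma-activated sites (GAS). In healthy brain the response runs at a low tonic level, and microglia, endothelium and cells at the borders of the brain (choroid plexus, meninges) are among the cells that carry it.

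Values are FPKM, counts of sequenced fragments divided by transcript length and library total. FPKM summed to 386956 and 348133 in ascorbate samples 1 and 2 and to 391142 and 372683 in PBS samples 1 and 2. The depth in reads is unknown, and counting error cannot be stated. The neuronal markers (8 genes) summed to 1797 and 2080 FPKM with ascorbate and to 1678 and 1927 FPKM with PBS, and the markers of hippocampal fields (8 genes) to 113.7 and 248.3 FPKM with ascorbate and 89.2 and 225.0 FPKM with PBS. Both lists were thus detected in every sample. The sum of the hippocampal field markers was lower in the samples numbered 1 than in those numbered 2 in both groups. Markers of other tissue differed between the groups, and choroid plexus markers (15 genes) summed to 229.2 and 47.6 FPKM with ascorbate against 9712 and 8952 FPKM with PBS.

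Interferon genes were mostly at lower levels with ascorbate, but none passed the adjusted threshold in limma-trend fitted on treatment alone. Summed over the 35 genes, the level was 138.1 and 105.4 FPKM with ascorbate, against 246.3 and 228.2 FPKM with PBS. Neither ascorbate sample reached the lower PBS sample for 25 of the 35 genes, a pattern seen for 14.6% of all genes with values. The reverse order without overlap held for 0 of the 35, against 7.67% of all genes. The gene was lower with ascorbate within both sample numbers for 31 of 35, against 29.3% of all genes. The median log2 difference on the log2(FPKM + 1) scale was -0.44 over the 35 genes and -0.01 over all genes with values. This scale understates the change of genes at low FPKM.

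Tests were made by limma-trend where the mean over the 4 samples reached 1 FPKM, as it did for 26 of the 35 genes and 13372 genes in all. Of the 26, 4 (Ifit1, Ifi27l2a, Trim30a and Gbp2) had an ascorbate mean under 1 FPKM and so were tested because of their level with PBS. After Benjamini-Hochberg adjustment over all 13372 genes, 0 genes passed 0.05 in limma-trend (0.0% of all), as did 0 in limma without the trend. At an unadjusted p under 0.05 in limma-trend, 8 of the 26 were lower and 0 higher, beside 2.72% lower and 0.0972% higher of all genes tested. Among tested genes, 17 of the 26 had groups that did not overlap with ascorbate lower, beside 14.4% of all genes tested, and 0 the reverse, beside 8.65%. The difference was below 0 for 25 of the 26, beside 54.2% of all genes tested. The median log2 difference of the 26 was -0.50, beside -0.02 over all genes tested, while leaving out ascorbate sample 2 gave -0.32 and leaving out ascorbate sample 1 gave -0.79. Between the samples numbered 1 the median was -0.46, and between those numbered 2 it was -0.59. An exact two-sided permutation of 2 against 2 samples cannot give a p below 1 in 3.

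**Figure D1:**
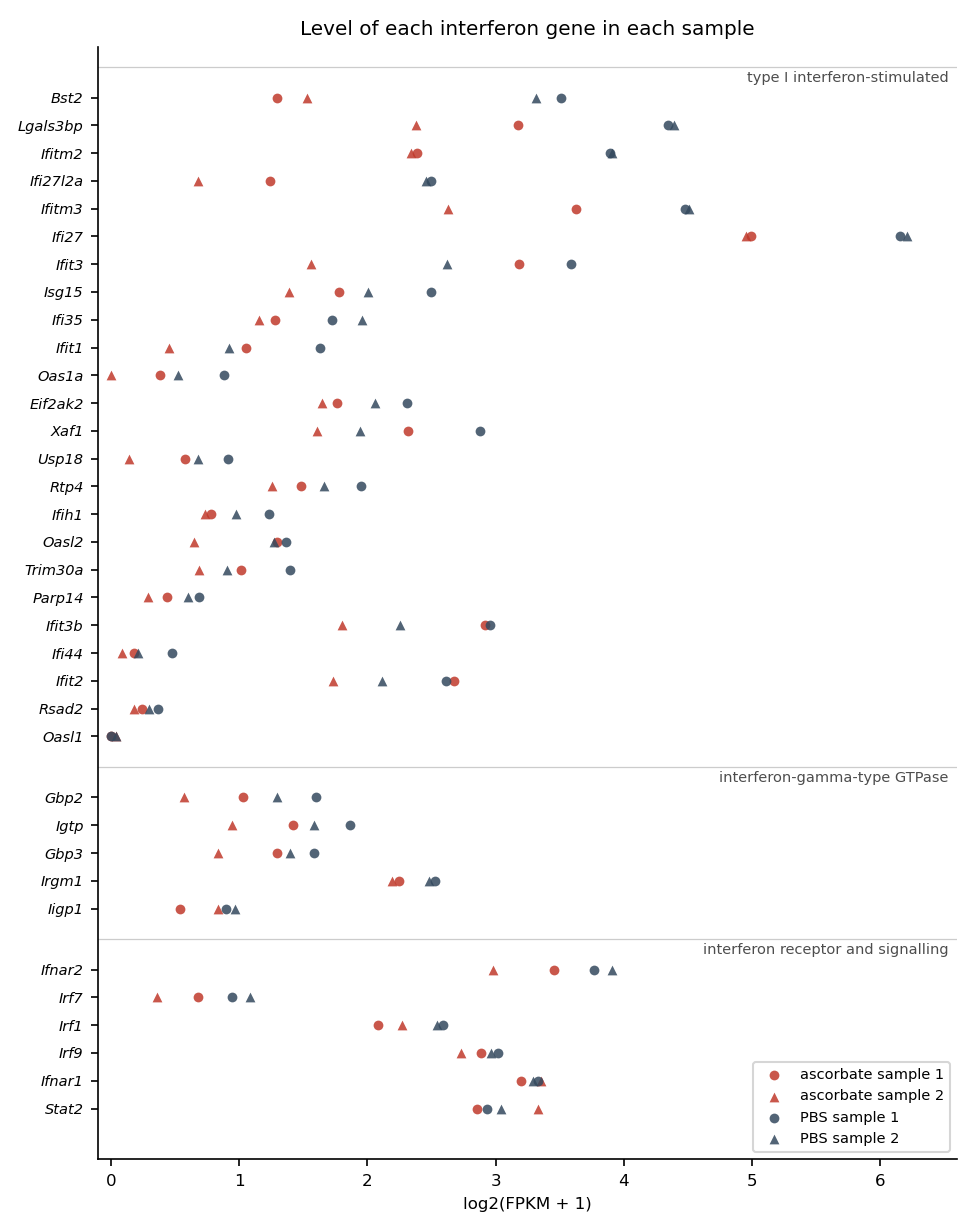
Level of each of the 35 interferon genes in each sample, as log2(FPKM + 1) on the horizontal axis, grouped by role. Points are single samples, red for ascorbate and dark blue for PBS, circles for number 1 and triangles for number 2. For 25 of the 35 genes both red points lie left of both blue points.

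The type I interferon-stimulated genes with the largest differences encode antiviral membrane proteins and a secreted protein. Bst2 (tetherin, gene ID 69550, chromosome 8, 71534255 to 71537472, GRCm38.p6), which holds budding enveloped viruses at the cell surface, was at 1.46 and 1.88 FPKM with ascorbate and at 10.4 and 8.94 FPKM with PBS. The groups were far apart, with a PBS mean 5.79 times the ascorbate mean. The log2 difference was -2.0 (SE 0.18), with an unadjusted p of 0.000234 and an adjusted p of 0.159 in limma-trend.

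Ifitm2 and Ifitm3 sit in endosomal membranes and block the entry of viruses. Ifitm2 (gene ID 80876, chromosome 7, 140954837 to 140959686) was at 4.22 and 4.07 FPKM with ascorbate and at 13.9 and 14.0 FPKM with PBS, with little spread in either group. Its log2 difference of -1.54 (SE 0.13) had the smallest unadjusted p of the 26 genes (0.000211, adjusted p = 0.158, limma-trend). Ifitm3 (chromosome 7, 141009590 to 141010744) was at 11.4 and 5.17 FPKM with ascorbate and at 21.3 and 21.8 FPKM with PBS. Its ascorbate samples differed from each other by more than its PBS samples did, and the log2 difference of -1.37 (SE 0.36, adjusted p = 1.0, limma-trend) ranged from -1.87 to -0.87 with single samples left out. Ifitm1, a related gene outside the 35, was at 1.61 and 1.09 FPKM with ascorbate and at 4.86 and 5.05 FPKM with PBS (log2 difference -1.35, SE 0.196, adjusted p = 0.334, limma-trend). Transcripts of Gm11951, a gene not among those with values, match Ifitm2 at 97.0% over 432 bases, so reads could have been divided between them.

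Lgals3bp (chromosome 11, 118392747 to 118401959), a secreted glycoprotein that binds galectin-3, was at 8.04 and 4.19 FPKM with ascorbate and at 19.3 and 20.0 FPKM with PBS. Its log2 difference was -1.59 (SE 0.30, adjusted p = 0.617, limma-trend). Ifi27 (chromosome 12, 103434189 to 103440245) encodes a small hydrophobic interferon-induced protein and was the most abundant of the 35 genes. It was at 30.9 and 30.0 FPKM with ascorbate and at 70.4 and 73.1 FPKM with PBS, with samples of a group close together and a log2 difference of -1.21 (SE 0.14, adjusted p = 0.191, limma-trend). Its relative Ifi27l2a was at 1.36 and 0.60 FPKM with ascorbate and at 4.63 and 4.48 FPKM with PBS (log2 difference -1.52, SE 0.25). The RefSeq spans of these genes overlap by 6057 bases, but no shared exon bases or near-identical transcripts were found between them. How reads in the shared span were assigned to these genes is unknown. Their sum was 32.2 and 30.6 FPKM with ascorbate and 75.1 and 77.6 FPKM with PBS.

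These 6 genes, Bst2, Lgals3bp, Ifitm2, Ifi27l2a, Ifitm3 and Ifi27, were the members with a log2 difference of -1 or lower, a size reached by 1.52% of all genes tested. Without any 1 sample, the difference stayed between -2.11 and -1.89 for Bst2, between -1.56 and -1.52 for Ifitm2 and between -1.24 and -1.18 for Ifi27.

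The promoters of the members were read from RefSeq (GRCm38.p6) as windows of 300 bases, which 29 of the 35 genes had in the table used. A window holds 250 bases before and 50 after a start site listed for the gene, which need not be the edge of the gene's span. They were searched on both strands for GAAA, any 2 bases and GAAA again (ISRE) and for TTCNNNGAA (GAS), where N is any base. ISRE letters were found for 17 of the 29 genes (58.6%), against 3.84% of the 15163 genes with a window and a value, and GAS letters for 10 of 29 (34.5%), against 8.70%. By group, ISRE letters were found for 12 of 19 type I genes, 4 of 4 GTPase genes and 1 of 6 receptor and signalling genes. GAS letters were found for 6 of 19, 1 of 4 and 3 of 6 in the same order. A match describes the letters only. The median log2 difference, without the filter on level, was -0.51 over the 17 genes with ISRE letters and -0.36 over the 12 without. These medians were not tested against each other, and the split by ISRE letters also follows the role of the genes. The 250 bases before the start are given here for the members with the smallest unadjusted p that had a window, with ISRE and GAS letters in capitals. Bst2 (chr8:71537473-71537722, minus strand) held 2 ISRE matches and 1 GAS match that run into one another. Ifitm2 (chr7:140955962-140956211, minus strand) held 1 ISRE match, and Lgals3bp (chr11:118401960-118402209, minus strand) held neither motif. The Ifitm2 window lies inside the span given above for that gene, so its bases are not those before the edge of the span.
Bst2: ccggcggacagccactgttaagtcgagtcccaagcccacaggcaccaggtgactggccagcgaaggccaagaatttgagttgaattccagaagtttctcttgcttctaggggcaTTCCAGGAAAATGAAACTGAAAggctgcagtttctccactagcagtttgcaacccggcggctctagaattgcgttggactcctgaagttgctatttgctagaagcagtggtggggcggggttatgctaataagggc
Ifitm2: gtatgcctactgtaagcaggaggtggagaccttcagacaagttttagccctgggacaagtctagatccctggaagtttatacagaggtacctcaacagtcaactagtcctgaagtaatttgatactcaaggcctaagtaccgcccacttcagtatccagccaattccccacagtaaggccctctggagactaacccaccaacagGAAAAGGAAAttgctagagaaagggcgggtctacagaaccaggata
Lgals3bp: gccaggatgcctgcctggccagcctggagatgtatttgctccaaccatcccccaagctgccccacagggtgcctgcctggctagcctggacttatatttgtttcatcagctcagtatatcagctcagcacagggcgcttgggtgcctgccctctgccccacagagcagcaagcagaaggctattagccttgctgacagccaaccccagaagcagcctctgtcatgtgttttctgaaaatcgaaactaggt

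**Figure D2:**
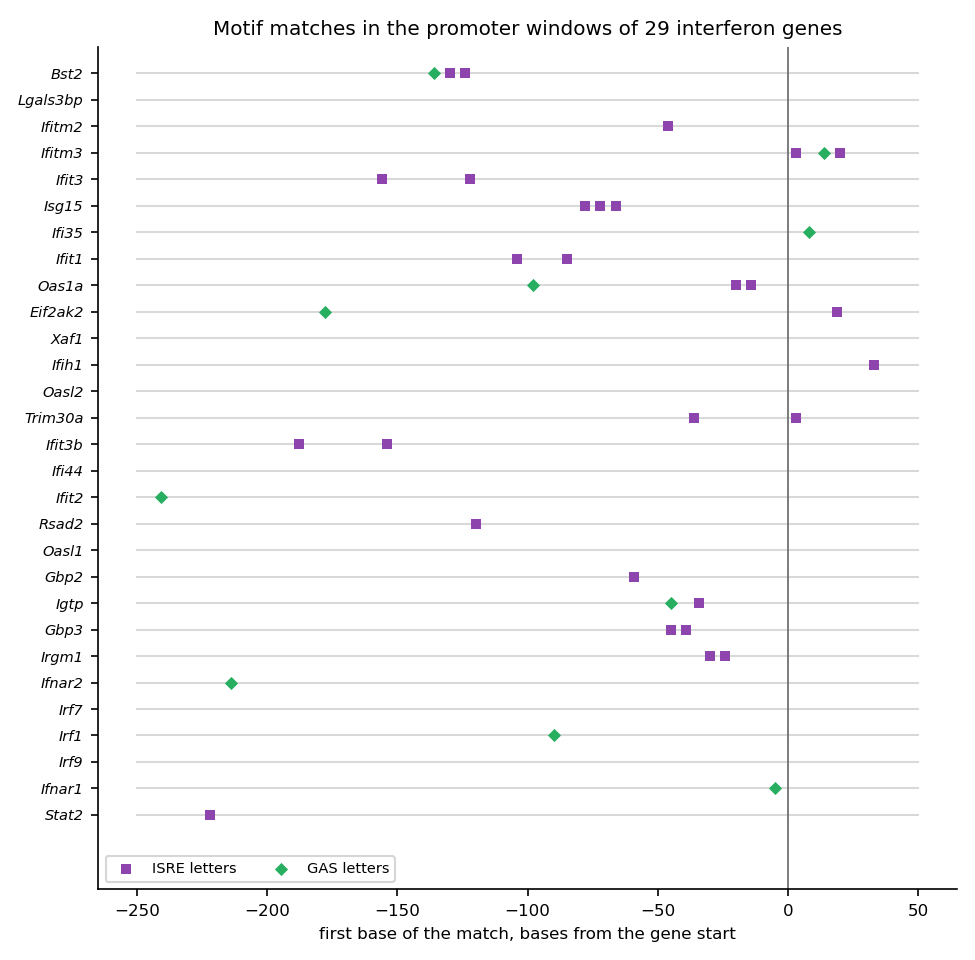
Positions of ISRE letters (purple squares) and GAS letters (green diamonds) in the promoter windows of 29 interferon genes, with the first base of each match on the horizontal axis in bases from the listed start site. Genes run down by role and then by log2 difference, and 17 of the 29 carry at least 1 purple square.

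The Ifit genes, a chromosome 19 cluster whose proteins bind viral RNA and hold back its translation, varied more between sample numbers than between treatments. Ifit1 was at 1.07 and 0.37 FPKM with ascorbate and at 2.10 and 0.89 FPKM with PBS. Ifit2 was at 5.38 and 2.32 FPKM with ascorbate and at 5.11 and 3.34 FPKM with PBS. Ifit3 was at 8.10 and 1.95 FPKM with ascorbate and at 11.1 and 5.15 FPKM with PBS. In each of these genes the groups overlapped and the sample numbered 1 was the higher one in both groups. Ifit3b, at 6.56 and 2.49 FPKM with ascorbate and 6.76 and 3.76 FPKM with PBS, followed the same order. Ifit3 and Ifit3b transcripts are 97.8% identical over 1700 bases, so the division of reads between them is uncertain. Their sum was 14.7 and 4.44 FPKM with ascorbate and 17.8 and 8.91 FPKM with PBS.

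On the log2(FPKM + 1) scale, samples numbered 1 exceeded samples numbered 2 by 0.65 for Ifit1, 0.72 for Ifit2, 1.30 for Ifit3 and 0.91 for Ifit3b. The ascorbate minus PBS differences of these genes were -0.52 (SE 0.37), -0.16 (SE 0.39), -0.73 (SE 0.66) and -0.24 (SE 0.47), with an adjusted p of 1.0 each in limma-trend. For 3 of them the sign depended on single samples. Without ascorbate sample 2 the difference was 0.31 for Ifit2, 0.08 for Ifit3 and 0.31 for Ifit3b, and without PBS sample 1 it was 0.08 for Ifit2 and 0.11 for Ifit3b. Xaf1, a protein that binds the apoptosis inhibitor XIAP, had the same pattern, at 3.97 and 2.05 FPKM with ascorbate and 6.36 and 2.84 FPKM with PBS. Its difference between numbers was 0.82 and its difference between treatments -0.45 (SE 0.43), or 0.02 without PBS sample 1. Ifit1, Ifit3 and Ifit3b each carried a pair of ISRE matches, TTTCACTTTC and TTTCAGTTTC, in their windows.

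Across the 35 genes, ascorbate sample 1 was above ascorbate sample 2 for 29, and PBS sample 1 was above PBS sample 2 for 25. Over all genes with values these shares were 54.0% and 55.7%. The hippocampal field markers were lower in the same 2 samples numbered 1, by the sums given above, and their part in the interferon pattern was not tested. For 25 of the 35 genes the treatment difference was larger in size than the difference between numbers. The share over all genes was not computed, so this count has nothing to be judged against.

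**Figure D3:**
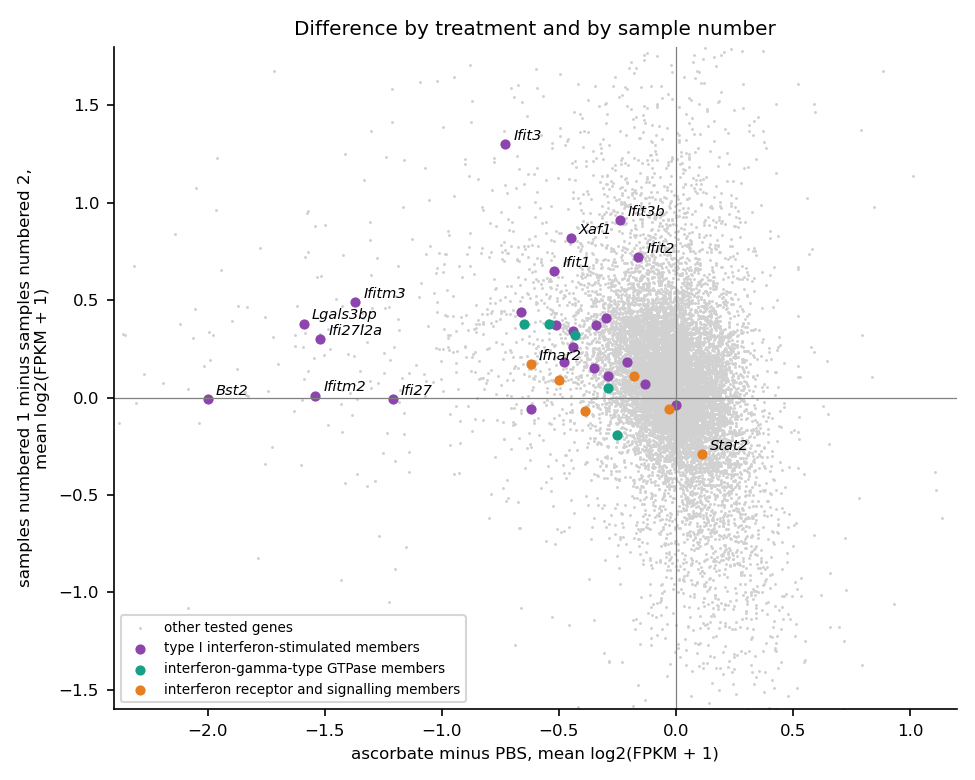
Difference between treatments (horizontal axis, ascorbate minus PBS) against difference between sample numbers (vertical axis, number 1 minus number 2), both in mean log2(FPKM + 1). Coloured points are the 35 interferon genes by role and grey points the other tested genes that fall within the axes. Bst2, Ifitm2 and Ifi27 lie far left at a number difference near 0, while Ifit3 lies high at 1.30.

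The other type I genes encode modifiers, sensors and further effectors. Isg15, a ubiquitin-like protein that is joined to other proteins, was at 2.44 and 1.62 FPKM with ascorbate and at 4.63 and 3.01 FPKM with PBS. Its groups did not overlap, and its log2 difference was -0.66 (SE 0.27, unadjusted p = 0.0637, limma-trend), or -0.42 without PBS sample 1. Usp18, the enzyme that removes Isg15 and dampens the type I receptor, was at 0.49 and 0.10 FPKM with ascorbate and at 0.88 and 0.60 FPKM with PBS, too low to be tested. Ifi35, a cytoplasmic protein with a leucine zipper, was at 1.43 and 1.23 FPKM with ascorbate and at 2.30 and 2.89 FPKM with PBS (log2 difference -0.62, SE 0.20, unadjusted p = 0.0312, adjusted p = 1.0, limma-trend).

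Among proteins that sense viral RNA, Eif2ak2, Ifih1 and Oas1a had groups that did not overlap. Eif2ak2 (PKR), a kinase that shuts down translation on binding double-stranded RNA, was at 2.39 and 2.13 FPKM with ascorbate and at 3.96 and 3.17 FPKM with PBS (log2 difference -0.48, SE 0.19). It shares 174 exon bases with Gm26637 on the opposite strand. Ifih1 (MDA5), a receptor for long double-stranded RNA, was at 0.72 and 0.66 FPKM with ascorbate and at 1.35 and 0.97 FPKM with PBS. Oas1a, which makes the second messenger that activates RNase L, was at 0.30 FPKM and listed at 0 in ascorbate samples 1 and 2, and at 0.84 and 0.44 FPKM with PBS. Its transcripts are 97.6% identical to those of Oas1g over 1861 bases, and the sum of both genes was 0.49 and 0.06 FPKM with ascorbate and 0.98 and 0.57 FPKM with PBS. The related Oasl2 was at 1.46 and 0.57 FPKM with ascorbate and at 1.58 and 1.41 FPKM with PBS, with overlapping groups and a log2 difference of -0.34 (SE 0.29), or -0.02 without ascorbate sample 2. Oasl1 was near 0 throughout, at 0.03 FPKM in the samples numbered 2 and listed at 0 in those numbered 1.

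Among the remaining effectors, Rtp4, a receptor-transporting protein, was at 1.79 and 1.39 FPKM with ascorbate and at 2.87 and 2.16 FPKM with PBS (log2 difference -0.44, SE 0.21, or -0.29 without PBS sample 1). Trim30a, a RING-finger protein of mouse, was at 1.02 and 0.61 FPKM with ascorbate and at 1.63 and 0.87 FPKM with PBS, with groups that overlapped and a log2 difference of -0.30 (SE 0.28), or -0.13 without ascorbate sample 2. Parp14, an ADP-ribosyltransferase, was at 0.35 and 0.22 FPKM with ascorbate and at 0.61 and 0.52 FPKM with PBS. Rsad2 (viperin), a radical SAM enzyme that makes an antiviral nucleotide, was at 0.18 and 0.13 FPKM with ascorbate and at 0.29 and 0.23 FPKM with PBS. Ifi44 was at 0.13 and 0.06 FPKM with ascorbate and at 0.39 and 0.16 FPKM with PBS. These last 3 genes were too low to be tested, and none had groups that overlapped. Over the 17 type I genes tested the median log2 difference was -0.62, with 17 of 17 below 0 (54.2% of all genes tested), 10 lower without overlap (14.4%) and 7 lower at an unadjusted p under 0.05 in limma-trend (2.72%). That median was -0.37 without ascorbate sample 2, while over all 24 type I genes without the filter it was -0.47, and 16 of these 24 were lower without overlap, beside 14.6% of all genes with values.

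The 5 GTPases of the interferon-gamma type were also at lower levels with ascorbate. Guanylate-binding proteins and immunity-related GTPases attack the vacuoles of intracellular microbes. Gbp2 was at 1.04 and 0.48 FPKM with ascorbate and at 2.03 and 1.46 FPKM with PBS (log2 difference -0.65, SE 0.27). Gbp3 was at 1.45 and 0.78 FPKM with ascorbate and at 1.99 and 1.63 FPKM with PBS (log2 difference -0.43, SE 0.25). Both lie on chromosome 3 and both had samples numbered 1 above samples numbered 2 in each group. Igtp (Irgm3) was at 1.67 and 0.92 FPKM with ascorbate and at 2.64 and 1.99 FPKM with PBS (log2 difference -0.54, SE 0.26), and it shares 162 exon bases with Irgm2 on the same strand. Irgm1, a regulator of the other immunity-related GTPases, was the most abundant and the least variable, at 3.75 and 3.57 FPKM with ascorbate and 4.77 and 4.59 FPKM with PBS (log2 difference -0.29, SE 0.15). Iigp1, also an immunity-related GTPase, was at 0.45 and 0.78 FPKM with ascorbate and at 0.86 and 0.96 FPKM with PBS. All 5 genes were lower without overlap, beside 14.6% of all genes with values, but 0 of the 4 tested reached an unadjusted p under 0.05 in limma-trend, beside 2.72% lower of all genes tested. The median log2 difference of these 4 was -0.48, ranging from -0.72 to -0.28 with single samples left out. Without ascorbate sample 2 the log2 difference was -0.42 for Gbp2, -0.19 for Gbp3 and -0.31 for Igtp.

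The receptor and signalling genes split. The Ifnar1 chain of the type I receptor (chromosome 16, 91485032 to 91510523) was at 8.19 and 9.21 FPKM with ascorbate and at 9.04 and 8.77 FPKM with PBS. These groups overlapped, and the log2 difference of -0.03 (SE 0.14) turned to 0.02 after rescaling to TPM. The Ifnar2 chain (chromosome 16, 91372783 to 91405589) was at 9.98 and 6.89 FPKM with ascorbate and at 12.6 and 14.0 FPKM with PBS, with no overlap. Its log2 difference was -0.62 (SE 0.21, unadjusted p = 0.0399, adjusted p = 1.0, limma-trend), or -0.38 without ascorbate sample 2. Ifnar2 shares 315 exon bases on the same strand with Gm21970, a gene not among those with values. Whether the 2 chains differ from each other was not tested.

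Of the transcription factors, Stat2 was the single member with a positive difference. It was at 6.25 and 9.09 FPKM with ascorbate and at 6.64 and 7.23 FPKM with PBS, with overlapping groups and a log2 difference of 0.11 (SE 0.21) that was -0.13 without ascorbate sample 2. Its DNA-binding partner Irf9 was at 6.41 and 5.65 FPKM with ascorbate and at 7.10 and 6.80 FPKM with PBS (log2 difference -0.18, SE 0.15, or -0.10 without ascorbate sample 2). Irf9 shares 123 exon bases with Rnf31 on the same strand.

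Irf1, induced by interferon-gamma and a driver of its targets, was at 3.24 and 3.83 FPKM with ascorbate and at 5.02 and 4.82 FPKM with PBS (log2 difference -0.39, SE 0.16, unadjusted p = 0.0699, limma-trend). Irf7, which amplifies type I interferon production, was at 0.60 and 0.28 FPKM with ascorbate and at 0.92 and 1.12 FPKM with PBS. Both had groups that did not overlap. Over the 5 tested genes of this group the median log2 difference was -0.18, against -0.62 for the type I genes and -0.48 for the GTPases, and these medians were not tested against each other. The 250 bases before the start of Stat2 (chr10:128270248-128270497, plus strand) and of the first listed start of Irf9 (chr14:55603735-55603984, plus strand) are shown because both genes encode subunits of the factor that binds the ISRE. Stat2 held 1 ISRE match, in capitals, and Irf9 held neither motif.
Stat2: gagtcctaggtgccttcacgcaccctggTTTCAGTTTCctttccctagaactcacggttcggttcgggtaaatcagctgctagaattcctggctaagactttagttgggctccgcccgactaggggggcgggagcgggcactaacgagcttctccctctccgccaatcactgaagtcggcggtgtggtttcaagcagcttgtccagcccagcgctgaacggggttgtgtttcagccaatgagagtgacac
Irf9: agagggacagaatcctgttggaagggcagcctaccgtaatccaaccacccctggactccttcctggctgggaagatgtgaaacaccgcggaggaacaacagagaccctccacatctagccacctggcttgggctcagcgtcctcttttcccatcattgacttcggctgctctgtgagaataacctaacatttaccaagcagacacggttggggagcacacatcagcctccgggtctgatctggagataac

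**Figure D4:**
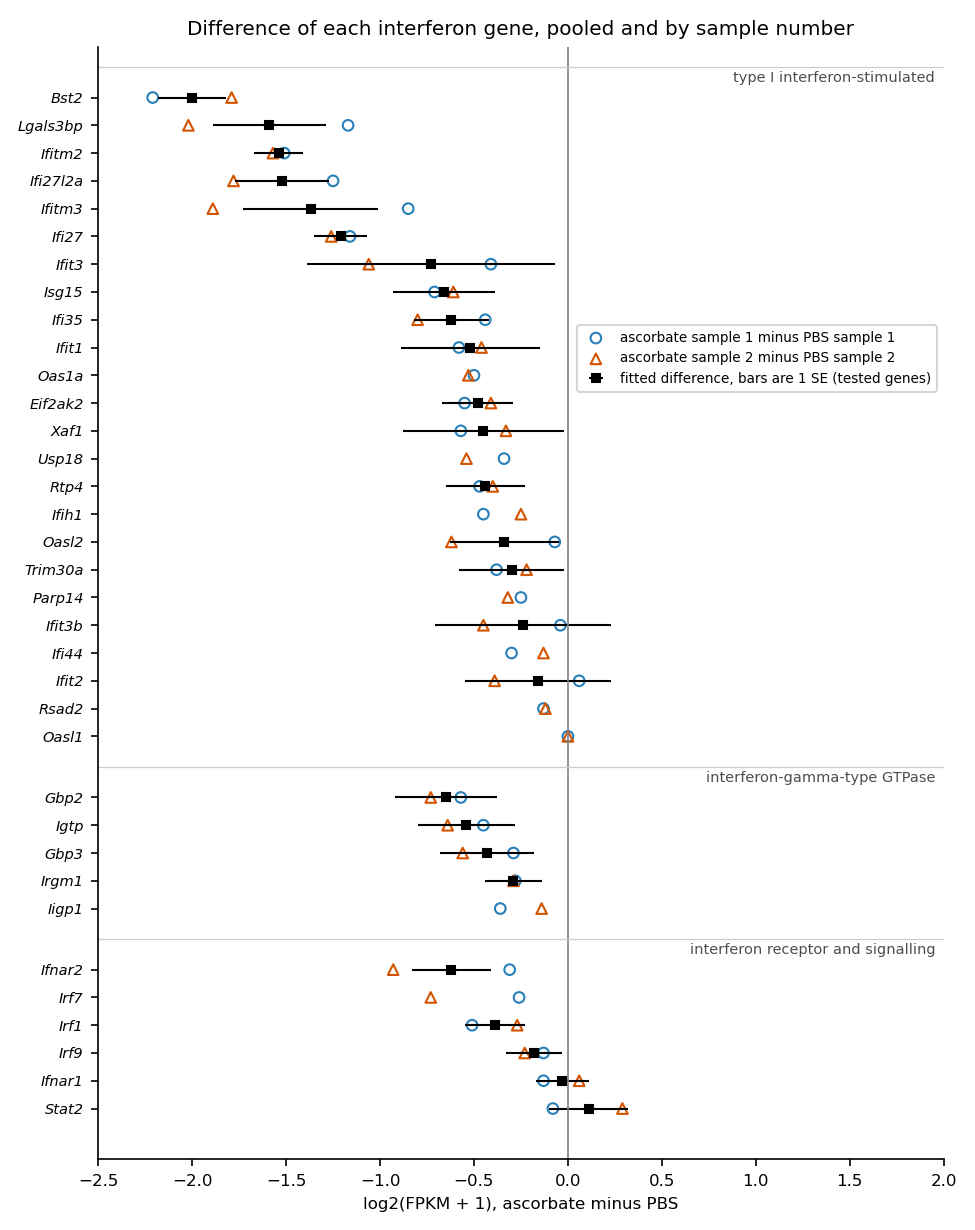
Ascorbate minus PBS difference of each interferon gene in log2(FPKM + 1). Black squares with bars are the fitted difference and 1 SE for the 26 tested genes, blue circles the samples numbered 1 and orange triangles those numbered 2. Bst2 is farthest left at -2.0, and Stat2 is the single square right of 0.

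Interferon pathway genes outside the 35 were counted from 5 lists of 117 entries, which gave 101 different genes with values, 50 of them tested. Of the 50, 36 had a log2 difference below 0 and 14 one above 0, beside 54.2% below 0 of all genes tested, and their median was -0.14. At an unadjusted p under 0.05 in limma-trend, 6 were lower and 0 higher, beside 2.72% lower and 0.0972% higher of all genes tested, and 0 passed after adjustment. Of the 6, Tgtp1 and Trim21 were tested because of their level with PBS. The interferon genes themselves were hardly detected. Of 15 ligand genes, 10 had empty cells, among them Ifnb1, 3 were listed at 0 in every sample, and interferon-gamma (Ifng) was listed at 0 with ascorbate and at 0 and 0.05 FPKM with PBS. Ifne had 0.09 FPKM in PBS sample 2 and was listed at 0 in the others.

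Among 14 tested receptors, kinases and factors, 8 were lower and 6 higher (median -0.05). The interferon-gamma receptor chain Ifngr1 was at 9.22 and 6.96 FPKM with ascorbate and at 10.9 and 9.33 FPKM with PBS, and Ifngr2 at 21.6 and 32.7 FPKM with ascorbate and 23.3 and 29.4 FPKM with PBS. The kinases Jak1 and Tyk2 had log2 differences of 0.04 (SE 0.174) and 0.13 (SE 0.209). Il10rb, a receptor chain shared by type III interferons and interleukin-10, was at 3.30 and 2.65 FPKM with ascorbate and at 6.16 and 6.96 FPKM with PBS (log2 difference -0.93, SE 0.174, adjusted p = 0.607, limma-trend). Transcripts of Gm21970, which also shares exon bases with Ifnar2, match Il10rb at 100.0% over 572 bases, so reads could have been divided between them. Irf8, a factor of microglia and macrophages, had a log2 difference of -0.26.

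Among 9 tested genes of nucleic acid sensing, 7 were lower and 2 higher (median -0.16). By unadjusted p, the first 3 of this list were Ddx58 (RIG-I, log2 difference -0.39), Tlr3 (-0.29) and Unc93b1 (-0.17). Of 24 further type I genes tested, 18 were lower and 6 higher (median -0.14), and 4 had an unadjusted p under 0.05. Beside Ifitm1, these included Trim21, at 0.99 and 0.65 FPKM with ascorbate and 2.43 and 1.9 FPKM with PBS, and Tor3a (log2 difference -0.70, SE 0.204). Of the further GTPases and interferon-gamma targets, 17 had values, with a median log2 difference of -0.24 without the filter on level. Only 3 were tested, Tgtp1, Gbp6 (-0.44) and Irgm2 (-0.31), and Tgtp1 and Gbp6 had an ascorbate mean under 1 FPKM, so that they were tested because of their level with PBS. Gbp6 transcripts are 98.7% identical to those of Gbp10 over 2536 bases, so the division of reads between them is uncertain. Tgtp1, a GTPase, was listed at 0 in ascorbate sample 1 and was at 0.15 FPKM in ascorbate sample 2, against 2.93 and 2.27 FPKM with PBS. Its transcripts are 99.8% identical to those of Tgtp2 over 2811 bases. The sum of both genes was 0.44 and 0.15 FPKM with ascorbate and 3.11 and 2.52 FPKM with PBS.

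Markers of several cell types differed in the same direction as the interferon genes. All 15 choroid plexus markers were lower without overlap, beside 14.6% of all genes with values, and 3 of them were listed at 0 in some ascorbate sample. Its most abundant members were Ttr, at 88.2 and 1.03 FPKM with ascorbate and 8152 and 7257 FPKM with PBS, and Enpp2, at 113.0 and 39.9 FPKM with ascorbate and 1212 and 1336 FPKM with PBS. Meningeal fibroblast markers (15 genes) summed to 66.6 and 47.9 FPKM with ascorbate against 310.1 and 313.3 FPKM with PBS, with 15 of 15 lower without overlap, also beside 14.6%. Its most abundant genes, Igf2 and Igfbp2, had log2 differences of -3.63 and -2.79. Border-associated macrophage markers (10 genes) summed to 7.25 and 6.53 FPKM with ascorbate and 14.2 and 10.7 FPKM with PBS. Of these, 8 of 10 were lower, beside 10202 of all 19388 genes with values. Cbr2 had a log2 difference of -0.87 and Stab1 one of -0.02.

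Endothelial markers (10 genes) summed to 31.7 and 38.4 FPKM with ascorbate and 52.1 and 53.5 FPKM with PBS, with 10 of 10 lower, such as Ly6c1 (-0.54) and Slco1a4 (-0.76). Over all genes with values, 10202 of 19388 were lower. Mural cell markers (10 genes) summed to 41.8 and 44.8 FPKM with ascorbate and 76.1 and 93.2 FPKM with PBS. Of these, 7 of 10 were lower, such as Vtn (-1.14) and Rgs5 (-0.37, with overlapping groups), and 3 were higher. Without overlap, 5 were lower and 1 was higher, beside 14.6% and 7.67% of all genes with values. The part of these tissues in the interferon differences was not tested, and in bulk RNA fewer cells of a type and less RNA per cell cannot be told apart. With the choroid plexus and meningeal lists left out and the rest rescaled, the median of the 26 tested genes was -0.53. That step only rescales the remaining values. It cannot remove interferon gene reads that come from these tissues, so it does not bear on their part.

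Microglial markers (10 genes), from the resident macrophages of brain tissue, summed to 166.8 and 168.5 FPKM with ascorbate and 181.2 and 168.9 FPKM with PBS. Of these, 7 of 10 were lower, beside 10202 of all 19388 genes with values, and Csf1r had a log2 difference of 0.15. Their median log2 difference was -0.04. Lower within both sample numbers were 3 of the 10, beside 29.3% of all genes. Astrocyte markers (8 genes, led by Aldoc and Slc1a2) summed to 1138 and 1096 FPKM with ascorbate and 1125 and 1046 FPKM with PBS. T cell markers (8 genes with values) summed to 1.28 and 1.23 FPKM with ascorbate and 1.09 and 1.36 FPKM with PBS. None of these 8 reached a mean of 1 FPKM, and the most abundant included Cd8a, at 0.33 and 0.37 FPKM with ascorbate and 0.42 and 0.18 FPKM with PBS. Markers of plasmacytoid dendritic cells and granulocytes (8 genes, among them Siglech, Tcf4 and Bst2 itself) summed to 44.6 and 96.5 FPKM with ascorbate and 55.8 and 97.1 FPKM with PBS. Of these, 7 of 8 were lower, beside 10202 of all 19388 genes with values, and 2 were lower without overlap, beside 14.6%. These 2 were Bst2, one of the interferon genes, and Siglech, which is also in the microglial list. Lower within both sample numbers were 3 of the 8, beside 29.3% of all genes. Most of this sum was Tcf4, at 32.3 and 82.7 FPKM with ascorbate and 30.6 and 76.6 FPKM with PBS.

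**Figure D5:**
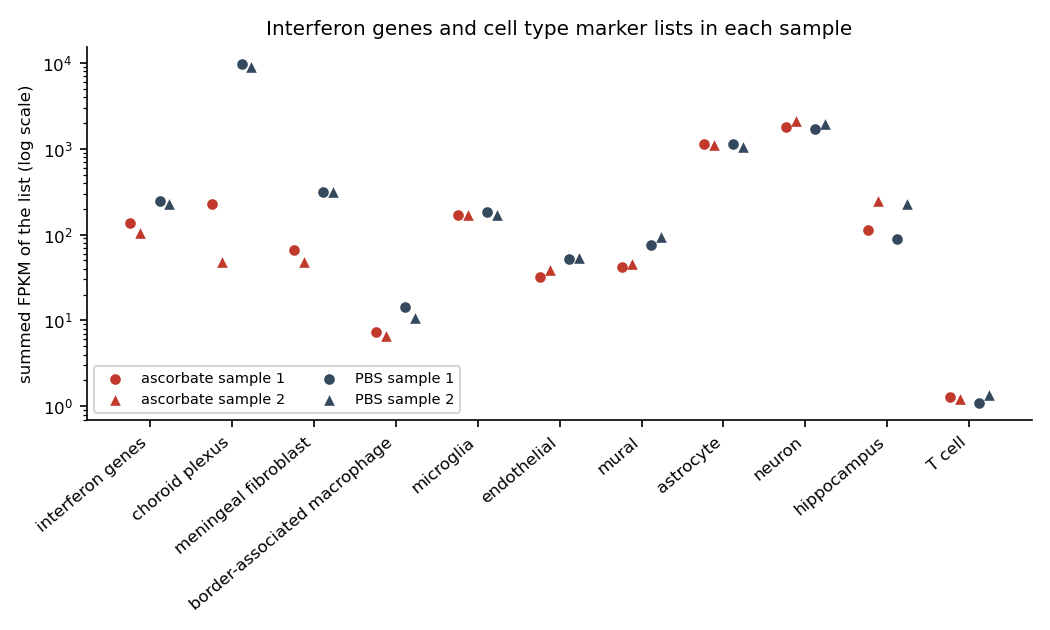
Summed FPKM of the 35 interferon genes and of 10 cell type marker lists in each sample, on a log axis. Red points are ascorbate and dark blue points PBS samples, circles number 1 and triangles number 2. The widest gap is in the choroid plexus list, with red points at 229.2 and 47.6 and blue points at 9712 and 8952, while the microglial, astrocyte and neuronal points lie close together.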

How the data were processed

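Polyadenylated RNA from 4 mouse hippocampus samples was sequenced, and the authors deposited 1 file of FPKM per sample, to 2 decimals, per the file headers. GRCm38 is the build, and RSEM, HISAT2, Bowtie2 and DESeq2 are the tools, named per the submitters' processing notes without versions or roles. The annotation, strand setting and filters are not given in the sources used here, so reads of overlapping genes cannot be told apart. FPKM divide by the library total, so abundant transcripts lower the values of others. Of 22173 genes listed, 2785 had empty cells. Files were joined by gene ID, and limma-trend (limma 3.58.1, R 4.3.3) was fitted to log2(FPKM + 1) for every gene averaging 1 FPKM or more, on group alone (2 residual degrees of freedom), with Benjamini-Hochberg adjustment over all genes (threshold 0.05). The fit was tested on simulated data with independent noise in each sample. In the real data same-numbered samples deviated together, so that test does not show how the fit behaves here. Gene positions and promoters are from RefSeq GRCm38.p6, and shared exons and transcripts from GENCODE on GRCm38, with BLAST+ 2.17.0 (at least 95% identity over 200 bases). Of the 35 genes, 7 had such a transcript of another gene and 4 shared exon bases with a gene of the files.

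The 35 genes and all lists were chosen with earlier results of these data known, so no p was computed over a list. All 35 genes are named with their values. Of the other pathway lists, the 3 tested genes with the smallest p and a few fixed signalling genes are named, and of each marker list up to 2 of the most abundant genes. Some genes that this rule names are not reported here. Synonyms of a gene already listed were counted once. Mx1, Mx2, Gbp11 and Trac were not analysed here. Alternatives were pseudocounts of 0.1 and 0.5, dropping the filter or raising it to 5 FPKM, limma with robust variances or without the trend, scaling by quantiles, by median of ratios or to TPM, the replicate number as a block, choroid plexus and meningeal lists left out, and each sample left out in turn.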

Additional observations from a re-analysis of the deposited data

How the results depend on the processing

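With 2 samples a group and unknown read totals, these data can resolve large differences only. The number of genes at an unadjusted p under 0.05, 377 in limma-trend, was 703 with no filter and 191 with a minimum of 5 FPKM, and ran from 175 (without PBS sample 1) to 627 (without ascorbate sample 1) with samples left out, and it was 249 without PBS sample 2. Of the interferon genes, 6 to 9 of those tested reached it with a sample left out, and 6 to 11 under the other alternatives except the block. After adjustment 0 genes passed except for 1 gene, none of the 35, after quantile normalization and 485 genes with the replicate block. The number of tested interferon genes lower without overlap was 17, and it was 7 of 10 tested with a minimum of 5 FPKM.

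The labels give the sample numbers no meaning, but same-numbered samples deviated together from their group means (correlation 0.77). With the number as a block, which leaves 1 residual degree of freedom, 1701 genes had an unadjusted p under 0.05 and 485 (3.63%) passed adjustment, 453 of them lower. The interferon genes at an unadjusted p under 0.05 were then 18 of 26, and 9 passed adjustment, all lower: Bst2, Ifitm2, Ifitm3, Ifi27, Ifi27l2a, Lgals3bp, Ifit3, Isg15 and Ifnar2.

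The median log2 difference of the tested interferon genes kept its sign under each alternative run, from -0.79 (without ascorbate sample 1) to -0.32 (without ascorbate sample 2) with samples left out, and was -0.97 with a minimum of 5 FPKM, where 10 remain tested. For type I genes it was -0.90 with a pseudocount of 0.1 and -1.45 with a minimum of 5 FPKM, and ran from -0.91 to -0.37 with samples left out. For the GTPases it was -0.77 with a pseudocount of 0.1, ran from -0.72 to -0.28 with samples left out, and none remained at a minimum of 5 FPKM. For receptor and signalling genes it was -0.28 with no filter, -0.11 with a minimum of 5 FPKM, -0.27 with TPM, -0.13 with median-of-ratios and -0.12 with quantile scaling, and ran from -0.26 to -0.13 with samples left out. The fewer or further genes tested set the values that move with the filter, and the pseudocount sets how far low genes can differ. For the rest the cause was not tested.

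Of 371 pairs of an interferon gene and an alternative, 11 turned the sign, in 6 genes. Ifnar1 was 0.02 with TPM and with median-of-ratios scaling and 0.01 with quantile scaling, and ran from -0.11 to 0.04 with samples left out. With samples left out, Ifit2 ran from -0.63 to 0.31, Ifit3 from -1.55 to 0.08, Ifit3b from -0.80 to 0.31, Xaf1 from -0.92 to 0.02 and Stat2 from -0.13 to 0.35. With a sample left out, the lone sample of its group is assumed to vary like the others.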
